A study of Mus musculus with 10 samples.

Results

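Spleen myeloid-derived suppressor cells (MDSC) from tumor-bearing mice were compared between Shp2f/f mice, in which the Ptpn11 gene encoding the phosphatase SHP-2 is flanked by loxP sites, and Shp2f/fLysMcre mice, which in addition carry Cre recombinase at the lysozyme M (Lyz2) locus. The comparison used the 4 MDSC libraries of the 10 in the series, 2 of each genotype, and the 14806 genes that passed an expression filter of the 55421 in the table of counts. All mice carried the floxed Ptpn11 alleles and a subcutaneous MC17-51 fibrosarcoma (named M17 in the description of the series). They were implanted at 8 to 12 weeks of age, and the cells were taken at day 15. Cre driven from the lysozyme M locus acts in monocytes, macrophages and granulocytes, so progenitors that do not yet use this locus keep the floxed gene. The labels describe the cells as Gr-1+ MDSC, and the methods of the study describe beads that select granulocytic (PMN) MDSC with Ly6G and without Ly6C. The labels and methods do not state whether a library came from 1 mouse or from a pool. The p-values therefore measure the spread between libraries.

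MDSC are immature myeloid cells that leave the marrow in large numbers when a tumor grows, and they have a granulocytic and a monocytic branch. Neutrophil precursors fill their granules in a fixed order, first azurophil granules with myeloperoxidase and serine proteases, then specific granules with lactoferrin and cathelicidin, then gelatinase granules, and they stop dividing along the way. The spleen of tumor-bearing mice also supports the formation of red cells, granulocytes and monocytes outside the marrow. SHP-2 acts downstream of receptors for cytokines and growth factors, where it feeds the Ras and ERK pathway.

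Total counts were between 33262119 and 36541823 per library. Replicates of Shp2f/f differed by more than 2-fold in 372 tested genes, and replicates of Shp2f/fLysMcre in 1011, so the Shp2f/fLysMcre pair was the more variable one. The genotypes also differed in the sex of the mice. Xist, the transcript of the inactive X chromosome, had 1 count in each Shp2f/f library and 139.2 and 123.7 CPM (counts relative to library size after TMM scaling, the unit of all levels given here) in the Shp2f/fLysMcre libraries. The Y-linked gene Eif2s3y was at 90.9 and 92.1 CPM in Shp2f/f and at 33.3 and 36.4 CPM in Shp2f/fLysMcre. Both Shp2f/fLysMcre libraries thus held transcripts of both sexes, and so RNA from more than 1 mouse, while the Shp2f/f libraries held almost no Xist. Genotype and sex therefore cannot be told apart, although the study reports using male and female mice in equal numbers. Of 433 X-linked genes tested 8 were called higher and 2 lower, of 7 Y-linked genes 3 were called lower, and without these chromosomes 623 genes were called, 551 of them higher.

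The label was checked against lineage markers. Ly6g, the gene of the neutrophil surface protein Ly6G, was at 12.5 and 9.36 CPM in Shp2f/f and at 35.0 and 30.9 CPM in Shp2f/fLysMcre. The monocyte genes Ccr2 (a chemokine receptor, 2062 and 1999 CPM in Shp2f/f) and Csf1r (the M-CSF receptor, 1491 and 1514 CPM in Shp2f/f) were abundant. Per kilobase of exon, the mean level in Shp2f/f was 11.6 CPM for Ly6g, 194.9 for Csf3r (the G-CSF receptor), 260.2 for Csf1r, 300.4 for Ccr2 and 6460 for S100a9. The libraries thus held abundant transcripts of the monocytic branch beside those of neutrophils, and Ly6c2 was at 500 to 608 CPM in all 4 libraries, so the cells are called spleen MDSC here and not granulocytic MDSC. In bulk RNA, more cells of a type and more RNA per cell cannot be told apart.

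Ptpn11 (GRCm38 chr5:121130533-121191397) was at 118.9 and 104.2 CPM in Shp2f/f and at 99.9 and 82.7 CPM in Shp2f/fLysMcre. This difference did not pass (log2 fold change -0.29, SE 0.143, BH-adjusted p = 0.361 by the quasi-likelihood test of edgeR), and counts over the whole gene include transcripts that lack the floxed segment. Lyz2, into which Cre is inserted, was at 9415 and 9935 CPM in Shp2f/f and at 45.6 and 48.9 CPM in Shp2f/fLysMcre. The genotype labels thus matched the Cre locus in all 4 libraries. No group carried Cre without the floxed alleles. Targeting of SHP-2, presence of Cre and the fall of Lyz2 therefore cannot be told apart here.

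Shp2f/fLysMcre MDSC had higher expression of granule genes of developing neutrophils, of red cell membrane genes and of genes for DNA replication and mitosis. A few monocyte and macrophage genes were lower. Of the 14806 tested genes, 556 were called higher in Shp2f/fLysMcre (3.76%) and 77 lower (0.52%) by edgeR at a BH-adjusted p under 0.05, together 4.28%. Counting each gene once, 28 of 76 tested granulocytic genes, 65 of 122 cell cycle genes and 34 of 54 erythroid genes were called higher. Among 74 monocytic genes, 2 were called higher and 4 lower. Falls were called for 1 erythroid gene and for 0 granulocytic and 0 cell cycle genes by edgeR. At an unadjusted p under 0.05, 6 granulocytic genes and 1 cell cycle gene were lower, and DESeq2 called 5 and 0 of them lower. Median log2 fold changes were 0.46 for granulocytic, 0.95 for erythroid, 0.78 for cell cycle and -0.13 for monocytic genes, against -0.01 for all tested genes. These calls rest on the 4 libraries together. With either Shp2f/f library left out, the spread comes from the more variable Shp2f/fLysMcre pair alone and Lyz2 was the only gene still called. With a Shp2f/fLysMcre library left out, the spread comes from the less variable Shp2f/f pair alone. More genes then pass, so calls of such a fit cannot show that the 633 hold without that library.

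**Figure D1:**
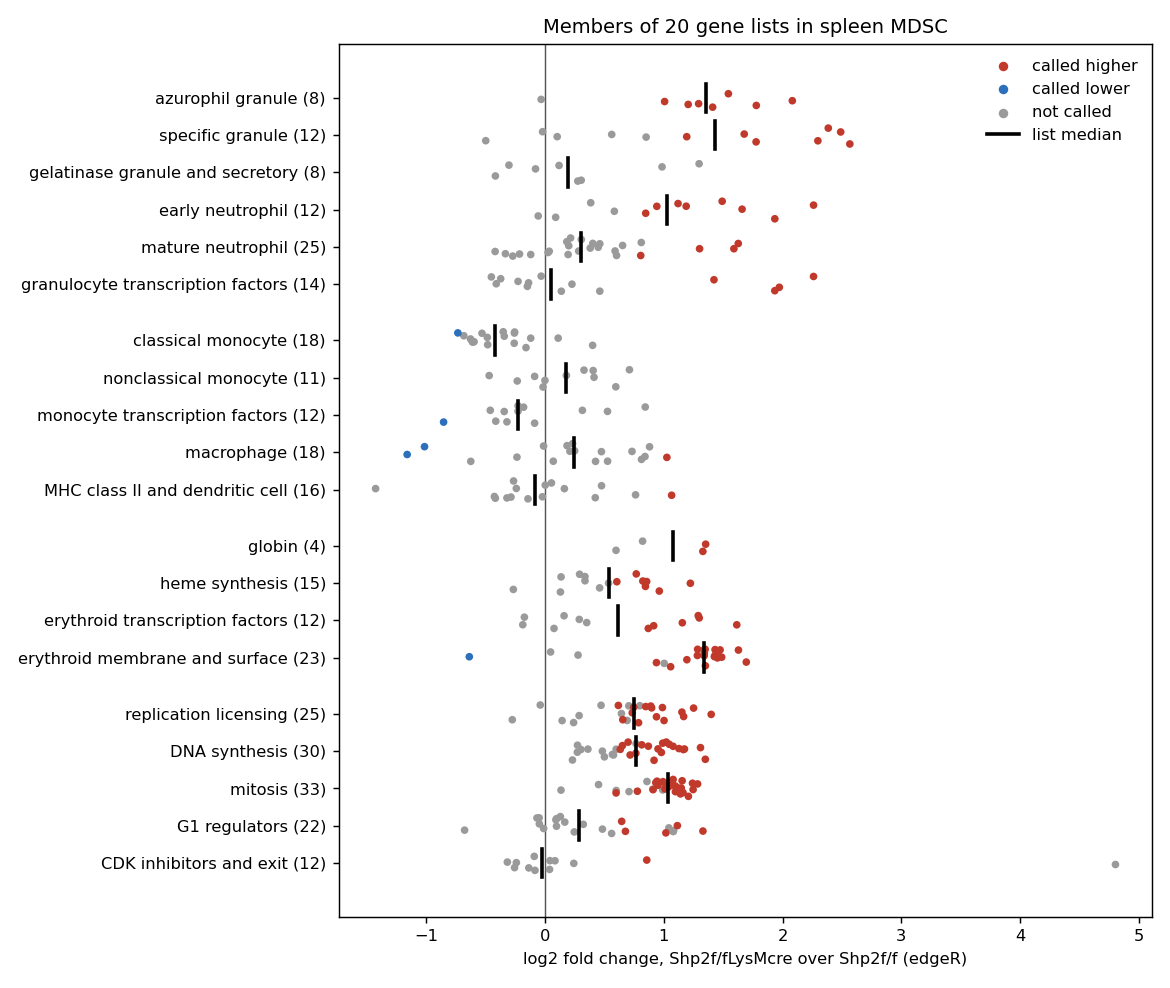
Log2 fold change of each tested member of 20 gene lists (x axis, Shp2f/fLysMcre over Shp2f/f in MDSC; number tested in parentheses), coloured by call at a BH-adjusted p under 0.05, with the list median as a black bar. Most members of the azurophil, specific granule, erythroid membrane, replication and mitosis lists lie to the right of 0, classical monocyte genes mostly lie to the left, and the point at 4.80 is Cdkn1c, which rests on 1 library.

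The granulocytic genes that rose included granule proteins, transcription factors and some genes of mature neutrophils. In the azurophil granule list 7 of 8 tested genes were called higher, with a median log2 fold change of 1.35, and in the specific granule list 7 of 12, with a median of 1.44. Of 8 gelatinase granule and secretory genes 0 were called by edgeR, and their median was 0.20. At an unadjusted p under 0.05, 3 of these 8 were higher and 1 lower, and DESeq2 called 2 higher and 1 lower. The early neutrophil list, with genes of proliferating precursors, had 8 of 12 called higher (median 1.03), against 4 of 25 in the mature neutrophil list (median 0.31). Without Shp2f/fLysMcre replicate 1 the medians of the gelatinase and mature neutrophil lists were 0.088 and 0.20. Without replicate 2 these medians were 0.20 and 0.38. The differences between lists were not tested.

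The genes of the specific granule list with the largest changes all lie on chromosome 9. Ngp (neutrophilic granule protein, chr9:110419747-110423012) was at 746 and 642 CPM in Shp2f/f and at 4729 and 3487 CPM in Shp2f/fLysMcre, a log2 fold change of 2.57 (SE 0.197, edgeR BH-adjusted p = 0.0170). Ltf (lactoferrin, an iron-binding granule protein, chr9:111019271-111042767) was at 444 and 368 CPM against 2681 and 1873 CPM (2.49, SE 0.220, edgeR BH-adjusted p = 0.0179). Camp (the cathelicidin antimicrobial peptide, chr9:109847379-109849617) was at 327 and 319 CPM against 1608 and 1764 CPM (2.38, SE 0.125, edgeR BH-adjusted p = 0.0111). For all of them the lower Shp2f/fLysMcre library lay at more than 4 times the higher Shp2f/f library. Not every specific granule gene followed. Chil3 (a chitinase-like protein) had the highest level on this list with 2436 and 2607 CPM against 5319 and 3786 CPM, and its log2 fold change of 0.85 did not pass (edgeR BH-adjusted p = 0.0809). Lrg1 had a log2 fold change of -0.50 and Hp (haptoglobin) of -0.02, neither of them called by edgeR. At an unadjusted p under 0.05, 8 of the 12 tested genes of this list were higher and 1 lower. DESeq2 also called 8 higher and 1 lower.

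Among azurophil granule genes, Mpo (myeloperoxidase) was at 178.3 and 137.7 CPM in Shp2f/f and at 558.2 and 363.4 CPM in Shp2f/fLysMcre (log2 fold change 1.54, SE 0.248, edgeR BH-adjusted p = 0.0354). Prss57, a serine protease of these granules, was at 6.77 and 6.30 CPM against 23.2 and 21.7 CPM (1.78, SE 0.131, edgeR BH-adjusted p = 0.0170). Cd63, a tetraspanin of granule membranes that many cell types also use, had the largest change of the list at 14.5 and 14.2 CPM against 47.9 and 73.6 CPM (2.08, SE 0.223, edgeR BH-adjusted p = 0.0183). The proteases Elane, Ctsg and Prtn3 had log2 fold changes of 1.41, 1.21 and 1.01 and were called. Srgn, the core protein of the granule proteoglycan and the most abundant gene of the list, was at 500 and 494 CPM against 523 and 449 CPM, so its groups overlapped.

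Some transcription factor genes of this stage rose as well. Gfi1, a repressor needed for neutrophil differentiation, was at 4.70 and 4.09 CPM in Shp2f/f and at 22.1 and 20.04 CPM in Shp2f/fLysMcre (log2 fold change 2.26, SE 0.150, edgeR BH-adjusted p = 0.0170). Cebpe, which encodes the factor C/EBP epsilon that activates specific granule genes, was at 15.8 and 13.3 CPM against 64.5 and 46.9 CPM (1.93, SE 0.195, edgeR BH-adjusted p = 0.0183). Klf5 rose by 1.97 (SE 0.222, edgeR BH-adjusted p = 0.0187) from 3.02 and 2.21 CPM to 10.7 and 9.88 CPM. Of the 14 factors on the list edgeR called 4 higher and 0 lower, and the median was 0.05. At an unadjusted p under 0.05, 5 were higher and 3 lower, and DESeq2 called 4 higher and 2 lower. Spi1 (PU.1) was at 619 and 676 CPM against 616 and 562 CPM, Cebpb had a log2 fold change of -0.22, and Cebpa and Runx1 had -0.41 and -0.45. Ms4a3, a surface gene of granulocyte and monocyte precursors, was at 28.4 and 29.1 CPM against 98.4 and 83.2 CPM (1.66, SE 0.126, edgeR BH-adjusted p = 0.0170).

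Of mature neutrophil genes, the alarmin subunits S100a9 and S100a8 and the surface gene Ly6g were among the 4 called. S100a9 was at 3379 and 3365 CPM in Shp2f/f and at 11194 and 9642 CPM in Shp2f/fLysMcre (log2 fold change 1.63, SE 0.135, edgeR BH-adjusted p = 0.0179), and S100a8 at 3425 and 3571 CPM against 9522 and 7727 CPM (1.30, SE 0.150, edgeR BH-adjusted p = 0.0192). Ly6g rose by 1.59 (SE 0.177, edgeR BH-adjusted p = 0.0186). Several genes of circulating neutrophils were not called. The chemokine receptor gene Cxcr2 was at 144.2 and 114.5 CPM against 279.9 and 174.2 CPM (0.81, edgeR BH-adjusted p = 0.166), Csf3r at 753 and 654 CPM against 913 and 722 CPM (0.22, edgeR BH-adjusted p = 0.561), and Retnlg at 224.4 and 194.3 CPM against 281.0 and 264.8 CPM (0.38, edgeR BH-adjusted p = 0.190). The integrin gene Itgam (CD11b) was at 406 and 414 CPM against 429 and 462 CPM and was not called.

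**Figure D2:**
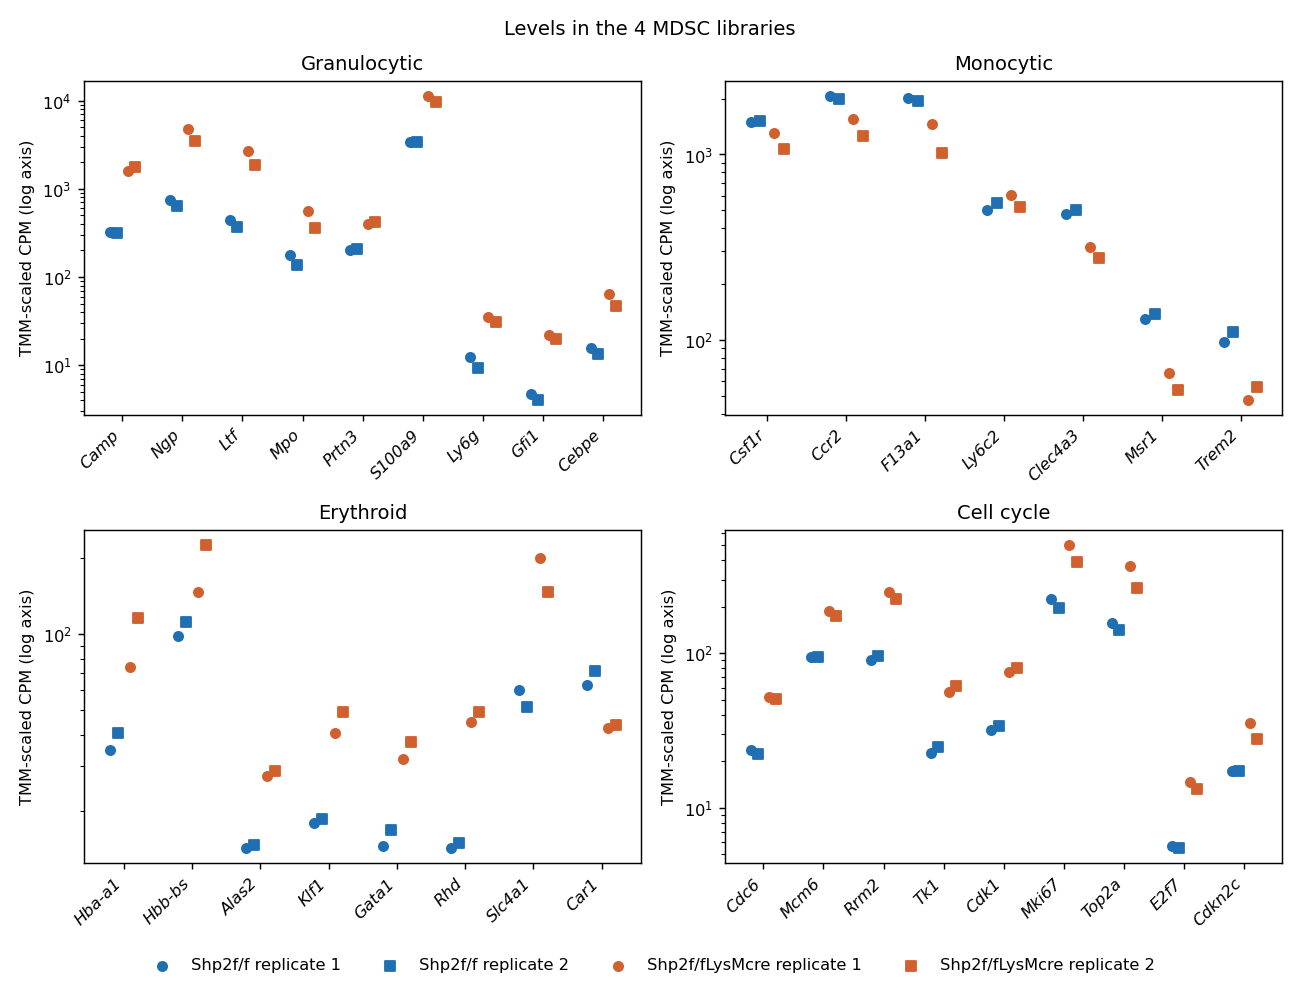
TMM-scaled CPM (y axis, log scale) of selected genes in each of the 4 MDSC libraries, with Shp2f/f in blue, Shp2f/fLysMcre in orange, circles for replicate 1 and squares for replicate 2. Both orange points lie above both blue points for every granulocytic gene plotted. The monocytic genes Csf1r, Ccr2, F13a1, Clec4a3, Msr1 and Trem2 show the reverse order, and for Ly6c2 the groups overlap.

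Monocyte genes lay lower in Shp2f/fLysMcre for the most part, though few passed the test. In the classical monocyte list 1 of 18 genes was called lower and 0 higher by edgeR, the median was -0.41, and for 12 of the 18 both Shp2f/fLysMcre libraries lay below both Shp2f/f libraries, which held for 24.6% of all tested genes. The Wald test of DESeq2 called 7 of the 18 lower, and the edgeR median was -0.27 without Shp2f/fLysMcre replicate 2. Clec4a3, a C-type lectin receptor, was at 478 and 505 CPM in Shp2f/f and at 316.5 and 275.7 CPM in Shp2f/fLysMcre (log2 fold change -0.73, SE 0.127, edgeR BH-adjusted p = 0.0421). Ccr2, needed for monocytes to leave the marrow, was at 2062 and 1999 CPM against 1563 and 1254 CPM (-0.53, edgeR BH-adjusted p = 0.133). F13a1 was at 2027 and 1950 CPM against 1460 and 1021 CPM (-0.68, edgeR BH-adjusted p = 0.136), and Csf1r at 1491 and 1514 CPM against 1304 and 1069 CPM (-0.34, edgeR BH-adjusted p = 0.277). In these genes Shp2f/fLysMcre replicate 2 was the lowest library. Ly6c2, which encodes the monocyte marker Ly6C, was at 500 and 546 CPM against 608 and 523 CPM, so its groups overlapped.

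Of 12 monocyte transcription factor genes 1 was called lower, and Irf8 and Klf4, which act early in the lineage, had log2 fold changes of -0.34 and -0.22. The macrophage list was split. Msr1, a scavenger receptor, fell from 129.7 and 137.8 CPM to 66.3 and 53.6 CPM (-1.16, SE 0.142, edgeR BH-adjusted p = 0.0208), and Trem2, a lipid-sensing receptor, fell from 97.5 and 110.5 CPM to 47.7 and 55.5 CPM (-1.01, SE 0.133, edgeR BH-adjusted p = 0.0234). Slc40a1, the iron exporter ferroportin of red pulp macrophages that handle hemoglobin iron, rose from 66.8 and 62.9 CPM to 132.1 CPM in both Shp2f/fLysMcre libraries (1.03, SE 0.107, edgeR BH-adjusted p = 0.0183). The median of the 18 macrophage genes was 0.24 and turned to -0.09 with Shp2f/fLysMcre replicate 2 left out. In replicate 2, 15 of the 18 were higher than in replicate 1, as were 7063 of all 14806 tested genes.

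The nonclassical monocyte list had 0 of 11 genes called by edgeR or DESeq2 and 2 at an unadjusted p under 0.05, 1 in each direction (median 0.18), and Cx3cr1 was at 134 and 129 CPM against 145 and 114 CPM. Of 16 MHC class II and dendritic cell genes 1 was called by edgeR, and DESeq2 called 1 higher and 1 lower. Cd74, the invariant chain, was at 1025 and 1144 CPM against 1030 and 1110 CPM (log2 fold change -0.02), and H2-Ab1 at 353 and 394 CPM against 344 and 405 CPM (0.00). The gene called by edgeR was Cd209a, a lectin of monocyte-derived dendritic cells, at 7.78 and 7.24 CPM against 15.3 and 16.1 CPM (1.07, SE 0.135, edgeR BH-adjusted p = 0.0219). Siglech, a gene of plasmacytoid dendritic cells, had the largest difference of the list at 1.16 and 0.848 CPM against 0.543 and 0.208 CPM (-1.42, edgeR BH-adjusted p = 0.226) and was not called.

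Among erythroid genes, calls fell on membrane, transcription factor, heme and globin genes. In the list of membrane and surface genes 19 of 23 were called higher and 1 lower (median 1.34), in the list of transcription factors 6 of 12 were called higher (median 0.61), in the heme synthesis list 7 of 15 (median 0.54) and among the globins 2 of 4 (median 1.08). The listed globin genes summed to 170.0 and 195.9 CPM in Shp2f/f and to 298.9 and 443.6 CPM in Shp2f/fLysMcre. In TAM, the macrophages isolated from the tumors of such mice, Gata1 did not exceed 0.0347 CPM of the total count in any of 6 libraries.

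Rhd, which encodes a Rhesus blood group protein, was at 14.2 and 14.9 CPM in Shp2f/f and at 45.001 and 49.5 CPM in Shp2f/fLysMcre (log2 fold change 1.69, SE 0.117, edgeR BH-adjusted p = 0.0170). Slc4a1, the anion exchanger band 3, was at 60.4 and 51.8 CPM against 199.9 and 146.9 CPM (1.63, SE 0.187, edgeR BH-adjusted p = 0.0192). The genotypes did not overlap in either of them. The spectrin and ankyrin genes Sptb and Ank1 had log2 fold changes of 1.45 and 1.43, and the erythropoietin receptor Epor one of 1.06, all called. The exception in direction was Car1, a carbonic anhydrase, which fell from 63.0 and 71.5 CPM to 42.7 and 43.9 CPM (-0.63), while Car2, its relative with wider use in red cells and myeloid cells, was at 122.8 and 132.5 CPM against 304.3 and 342.5 CPM (1.34, SE 0.125, edgeR BH-adjusted p = 0.0179). Epb41, which is expressed beyond red cells, was at 154.2 and 144.5 CPM against 173.3 and 135.7 CPM and was not called.

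The 6 transcription factor genes called higher were Hemgn, Klf1, Gfi1b, Gata1, Tal1 and Zfpm1. Hemgn, a regulator of erythroid differentiation, was at 15.1 and 15.4 CPM in Shp2f/f and at 47.7 and 45.9 CPM in Shp2f/fLysMcre (log2 fold change 1.61, SE 0.108, edgeR BH-adjusted p = 0.0170). Klf1, the erythroid Kruppel-like factor, was at 17.9 and 18.7 CPM against 40.8 and 49.1 CPM (1.30, SE 0.135, edgeR BH-adjusted p = 0.0183). Gata1 was at 14.5 and 16.8 CPM against 32.2 and 37.5 CPM (1.16, SE 0.142, edgeR BH-adjusted p = 0.0208). Gfi1b, the erythroid relative of Gfi1, rose by 1.29 (SE 0.141, edgeR BH-adjusted p = 0.0183). Ikzf1 and Nfe2 had log2 fold changes of 0.08 and 0.35 and were not called. Alas2, the erythroid form of the first enzyme of heme synthesis, was at 14.2 and 14.7 CPM against 27.5 and 28.8 CPM (0.96, SE 0.113, edgeR BH-adjusted p = 0.0201), and Alad, the next enzyme of the pathway, rose by 1.22 (SE 0.176, edgeR BH-adjusted p = 0.0277). Alas1, the form used by all cells, had a log2 fold change of 0.29 and was not called.

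Among the globins, Hba-a1 was at 35.0 and 40.8 CPM in Shp2f/f and at 74.3 and 116.3 CPM in Shp2f/fLysMcre (log2 fold change 1.33, SE 0.232, edgeR BH-adjusted p = 0.0428), and Hbb-bt at 26.8 and 29.6 CPM against 64.8 and 79.3 CPM (1.35, SE 0.142, edgeR BH-adjusted p = 0.0183). Hbb-bs and Hba-a2 were not called, and since these genes are near-identical copies, the split of reads between them is uncertain. All 4 were higher in Shp2f/fLysMcre replicate 2 than in replicate 1, as were 7063 of all 14806 tested genes. Genes of the megakaryocyte lineage, which shares GATA1 with red cells, had a median of -0.48 over 12 tested genes, with 1 called higher and 0 lower by edgeR. At an unadjusted p under 0.05, 4 were lower, and DESeq2 called 0 lower. The median was -0.86 without Shp2f/fLysMcre replicate 2 and -0.29 without replicate 1. Over the 9 genes that passed a filter of 1 CPM in 2 libraries it was -0.15. The gene called was Itgb3 (8.42 and 8.06 CPM against 17.9 and 14.3 CPM).

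Of 122 cell cycle genes 65 rose and 57 were not called. In the mitosis list 25 of 33 genes were called higher (median 1.04), in the DNA synthesis list 19 of 30 (median 0.77) and in the replication licensing list 15 of 25 (median 0.75). All 33 members of the mitosis list and all 30 of the DNA synthesis list had log2 fold changes above 0, against 47.8% of all tested genes. Genes that set the G1 phase had 5 of 22 called (median 0.29), and of 12 CDK inhibitors and genes of cell cycle exit 1 was called (median -0.02).

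Of the genes that license replication origins, Cdc6 was at 23.6 and 22.3 CPM in Shp2f/f and at 52.3 and 50.9 CPM in Shp2f/fLysMcre (log2 fold change 1.17, SE 0.107, edgeR BH-adjusted p = 0.0179). Cdc7, the kinase that fires origins, was at 9.91 and 9.58 CPM against 23.4 and 23.0 CPM (1.25, SE 0.118, edgeR BH-adjusted p = 0.0180), and Ticrr, which helps to start replication forks, at 9.18 and 7.21 CPM against 25.5 and 17.8 CPM (1.40, SE 0.226, edgeR BH-adjusted p = 0.0360). The helicase subunit Mcm6 was at 94.6 and 94.5 CPM against 187.7 and 175.0 CPM (0.94, edgeR BH-adjusted p = 0.0202), and the subunit Mcm5 at 105.9 and 96.2 CPM against 194.8 and 156.8 CPM (0.80, edgeR BH-adjusted p = 0.0502, not called). Of the origin recognition genes, Orc1, which is made anew in G1, was called with a log2 fold change of 1.15, while Orc3 and Orc4 had -0.04 and -0.27 and were not called.

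For DNA synthesis, Rrm2, the cell cycle subunit of ribonucleotide reductase, was at 90.6 and 95.6 CPM in Shp2f/f and at 250.8 and 224.1 CPM in Shp2f/fLysMcre (log2 fold change 1.35, SE 0.121, edgeR BH-adjusted p = 0.0179). Tk1, the thymidine kinase of S phase, was at 22.7 and 24.9 CPM against 56.5 and 61.4 CPM (1.31, SE 0.116, edgeR BH-adjusted p = 0.0179). For mitosis, Cdk1 was at 31.8 and 34.0 CPM against 75.6 and 80.7 CPM (1.25, SE 0.108, edgeR BH-adjusted p = 0.0179). The Shp2f/fLysMcre libraries lay above the Shp2f/f libraries for 29 of 30 DNA synthesis genes and 32 of 33 mitosis genes, which held for 24.6% of all tested genes. Mki67, the gene of the proliferation marker Ki-67, was at 226.2 and 197.8 CPM against 503.3 and 392.8 CPM (1.08, SE 0.165, edgeR BH-adjusted p = 0.0322), and Top2a at 156.4 and 142.2 CPM against 366.3 and 263.3 CPM (1.08, SE 0.186, edgeR BH-adjusted p = 0.0420). In the mitosis list only 3 of 33 genes were higher in Shp2f/fLysMcre replicate 2 than in replicate 1, while in the DNA synthesis list 13 of 30 were. Of all 14806 tested genes 7063 were.

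Of the G1 regulators, E2f7, a repressor made in S phase, rose from 5.67 and 5.45 CPM to 14.8 and 13.2 CPM (log2 fold change 1.33, SE 0.151, edgeR BH-adjusted p = 0.0190), and Ccne1 (cyclin E1) from 22.3 and 23.2 CPM to 45.9 and 46.5 CPM (1.02, SE 0.105, edgeR BH-adjusted p = 0.0183). The most abundant gene of the list, Ccnd3 (cyclin D3), was at 528 and 559 CPM against 572 and 618 CPM (0.13, edgeR BH-adjusted p = 0.636). Cdkn2c, an inhibitor of the G1 kinases, was at 17.4 and 17.3 CPM against 35.2 and 27.7 CPM (0.86, SE 0.150, edgeR BH-adjusted p = 0.0430). The inhibitor genes Cdkn1a and Cdkn1b had log2 fold changes of -0.25 and -0.09, and the antiproliferative genes Btg1 and Btg2 of -0.13 and -0.08, and edgeR called none of these 4.

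Promoters of these lists were searched for short motifs of factors known for each program, on both strands of the 250 bases before the RefSeq start (build GRCm38.p6). Of the genes tested, 10397 had such a window. An E2F motif (TTTCCCGC, TTTGGCGC, TTTCGCGC or TTTGCCGC) was in 8 of 20 replication licensing promoters and 4 of 26 DNA synthesis promoters (15.4%), against 3.83% of the promoters of all genes tested. The CHR element of mitotic genes (TTTGAA) was in 9 of 28 mitosis promoters (32.1%) against 13.2%, and CCAAT was in 21 of 28 against 40.5%. A GATA motif (AGATAA or TGATAA) was in 8 of 17 erythroid membrane promoters (47.1%), 6 of 10 erythroid transcription factor promoters (60.0%), 3 of 4 globin promoters and 3 of 11 heme synthesis promoters (27.3%), against 12.2%. The C/EBP motif TTGCNNAA was in 4 of 10 specific granule promoters and 0 of 6 azurophil granule promoters, against 9.27%. Among all 556 genes called higher, 404 had a window and the shares were 6.93% for E2F, 19.6% for CHR, 50.5% for CCAAT, 16.6% for GATA and 9.90% for C/EBP. Among the 77 genes called lower, 53 had a window and the shares were 1.89% for E2F, 15.1% for CHR, 26.4% for CCAAT, 24.5% for GATA and 5.66% for C/EBP. These lists were put together from known functions, so such shares describe the genes and not the effect of genotype.

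Stretches of 100 bases from promoters of genes described above show where these motifs lie. Each stretch is written 5′ to 3′ on the strand of its gene. Only the motif named below for each gene is in capitals. Matches to the other motifs, such as AGATAA in Top2a and Ltf and CCAAT in Mki67, are left in lower case. Mcm5 (chr8:75109310-75109409, plus strand) and Mcm6 (chr1:128359706-128359805, minus strand) carry E2F motifs, with 2 overlapping ones in Mcm5. Mki67 (chr7:135716428-135716527, minus strand) and Top2a (chr11:99024190-99024289, minus strand) carry the CHR element. Rhd (chr4:134864436-134864535, plus strand) and Gfi1b (chr2:28622053-28622152, minus strand) carry a GATA motif, and Ltf (chr9:111019167-111019266, plus strand) a C/EBP motif.
Mcm5: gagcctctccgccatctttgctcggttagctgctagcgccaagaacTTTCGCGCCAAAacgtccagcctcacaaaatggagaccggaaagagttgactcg
Mcm6: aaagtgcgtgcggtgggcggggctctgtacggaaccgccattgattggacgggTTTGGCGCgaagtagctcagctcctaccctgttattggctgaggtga
Mki67: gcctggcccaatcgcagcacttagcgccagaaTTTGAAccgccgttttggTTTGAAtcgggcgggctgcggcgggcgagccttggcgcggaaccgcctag
Top2a: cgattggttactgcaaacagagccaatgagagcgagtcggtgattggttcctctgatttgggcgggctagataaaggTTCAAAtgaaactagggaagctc
Rhd: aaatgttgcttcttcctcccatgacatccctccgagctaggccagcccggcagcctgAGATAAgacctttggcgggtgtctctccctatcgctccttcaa
Gfi1b: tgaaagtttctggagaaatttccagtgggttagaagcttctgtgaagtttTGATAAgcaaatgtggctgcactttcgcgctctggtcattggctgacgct
Ltf: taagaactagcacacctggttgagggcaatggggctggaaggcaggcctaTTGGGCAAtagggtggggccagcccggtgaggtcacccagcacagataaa

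**Figure D3:**
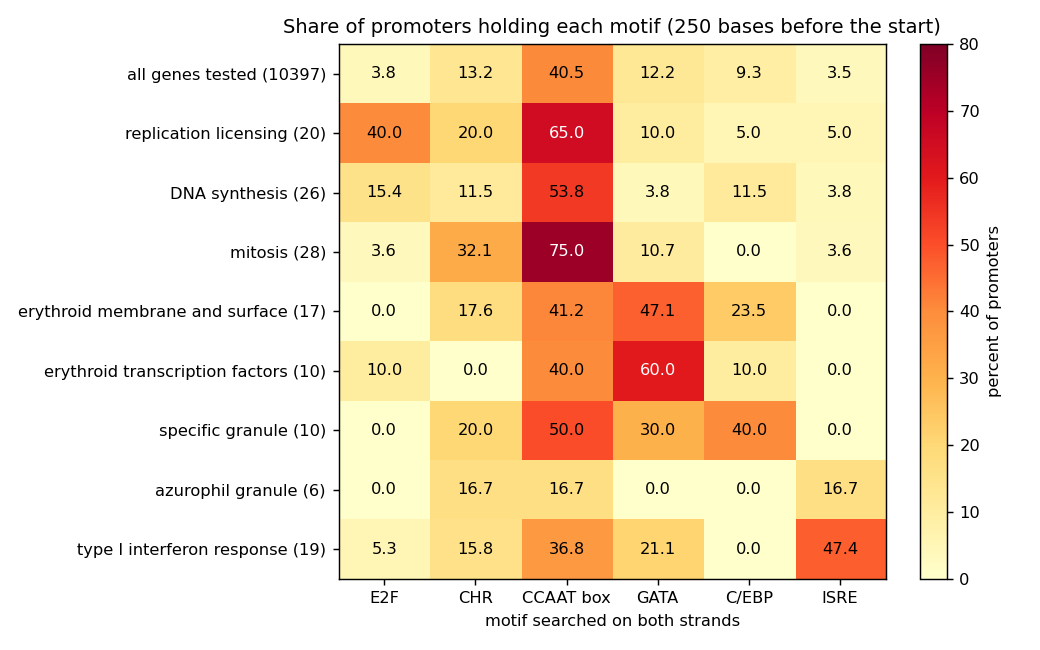
Percent of promoters (number with a RefSeq window in parentheses) that hold each motif in the 250 bases before the start, for all genes tested and 8 lists. E2F stands out in replication licensing promoters with 8 of 20, CCAAT in mitosis promoters with 21 of 28 and GATA in erythroid transcription factor promoters with 6 of 10, and ISRE (GAAA, any 2 bases, GAAA) is in 47.4% of type I interferon response promoters.

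The next question was which changes were carried by a single library. A gene that differed by 1 or more on the log2 scale, in either direction, was taken to rest on 1 library when leaving that library out cut the difference between the genotypes to under 0.5 of its size or turned its sign. Of 1437 genes with a change of that size (9.71% of those tested), 339 (23.6%) rested on 1 library, which is 2.29% of all genes tested. Of the 439 called genes with a change of that size, 0 rested on 1 library, and since the spread between replicates enters the test, such genes are the ones it is least likely to call. Of all 633 called genes, 632 kept at least 75% of their difference whichever library was left out, and the lowest share kept was 0.721, for the immunoglobulin segment Igkv3-4. A change of that size was reached by 26 of 76 granulocytic, 5 of 74 monocytic and 26 of 54 erythroid genes, and 0 of these rested on 1 library. Smaller changes fall outside the rule and can still depend on 1 library. The macrophage median was 0.24, and -0.09 without Shp2f/fLysMcre replicate 2. Of 122 cell cycle genes 39 had a change of that size, and among them Cdkn1c and Ccnd1 rested on 1 library. Cdkn1c, a CDK inhibitor gene, was at 0.244 and 0.606 CPM in Shp2f/f and at 0.514 and 23.3 CPM in Shp2f/fLysMcre, and Ccnd1 (cyclin D1) at 3.60 and 4.03 CPM against 5.20 and 10.5 CPM.

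Most of these genes rested on Shp2f/fLysMcre replicate 2, with 276 higher and 7 lower. The 276 higher ones summed to 3196 CPM in that library, against 263 CPM in Shp2f/fLysMcre replicate 1 and 235 and 270 CPM in the Shp2f/f libraries. In each of the other 3 libraries 188 of the 276 were under 1 CPM. Amelx, which encodes the enamel matrix protein amelogenin, was at 0.366 and 0.515 CPM in Shp2f/f, at 0.371 CPM in Shp2f/fLysMcre replicate 1 and at 499 CPM in replicate 2. Tnc (tenascin C, a matrix protein) was at 0.183, 0.394 and 0.114 CPM in the other libraries and at 78.4 CPM there. Fstl1, Serpinh1 (a chaperone of collagen folding) and Igfbp5 reached 52.1, 61.4 and 20.2 CPM there and at most 0.600 CPM elsewhere. Of 19 tested collagen genes 9 rested on this library, and Col3a1 was at 1.28, 2.76 and 0.971 CPM in the others and at 120.8 CPM in it.

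The list of fibroblast and stroma genes shows the size of this. Its median log2 fold change was 3.73, the largest of all lists, yet 0 of 14 genes were called by edgeR (4 by DESeq2, and 9 at an unadjusted edgeR p under 0.05), and 10 of 14 rested on Shp2f/fLysMcre replicate 2. The median difference in log2 CPM was 4.88 without Shp2f/fLysMcre replicate 1 and -0.05 without replicate 2. Of 8 endothelial genes 3 rested on the same library. The lowest edgeR BH-adjusted p among all genes resting on this library was 0.143. Without Shp2f/fLysMcre replicate 2 the median log2 fold changes were 1.18 for mitosis, 0.79 for DNA synthesis and 1.35 for erythroid membrane genes. For specific and azurophil granule genes they were 1.53 and 1.56.

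Shp2f/fLysMcre replicate 1 carried 29 genes, 16 of which were immunoglobulin segments, the gene pieces that B cells join and plasma cells transcribe. The segment Ighv1-80 was at 12.7 and 7.58 CPM in Shp2f/f and at 45.03 and 16.2 CPM in Shp2f/fLysMcre, and Igkv17-121 at 4.91 and 2.18 CPM against 22.7 and 4.73 CPM. Segments share sequence, so reads may be split between them. A further 27 genes rested on a Shp2f/f library, with mean levels of at most 3.01 CPM.

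**Figure D4:**
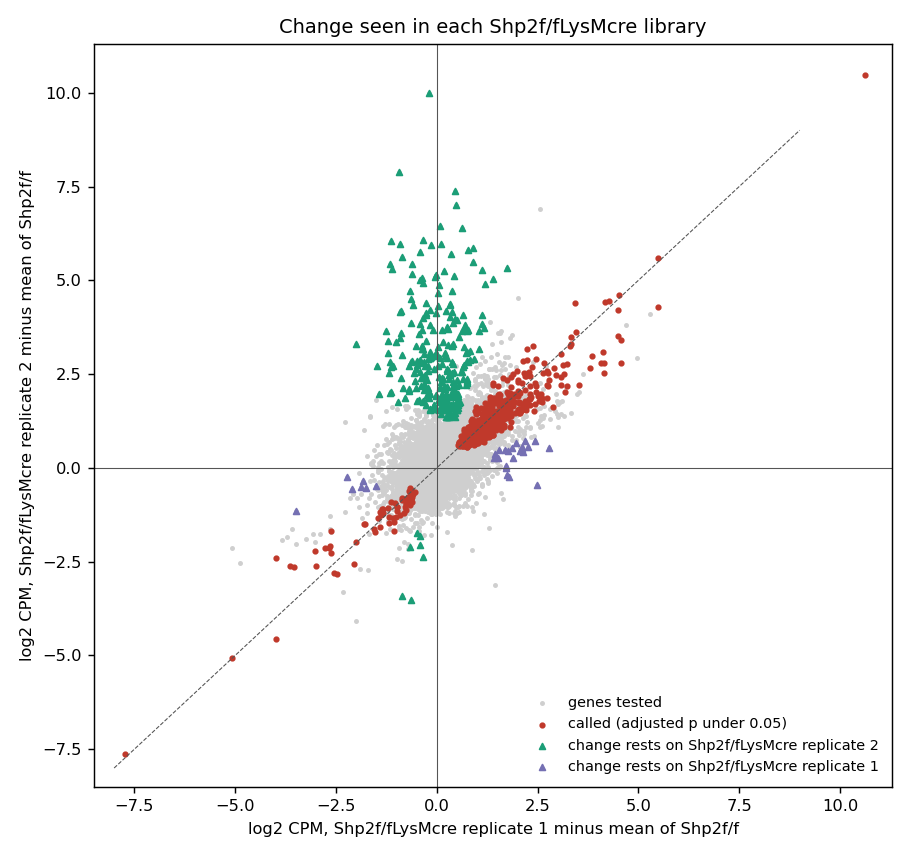
Difference in log2 CPM from the mean of the Shp2f/f libraries for each tested gene, in Shp2f/fLysMcre replicate 1 (x axis) and replicate 2 (y axis), with the dashed line marking equal values. Called genes lie near the dashed line, and the 283 genes resting on replicate 2 lie along the vertical axis, up to Amelx at the top.

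**Figure D5:**
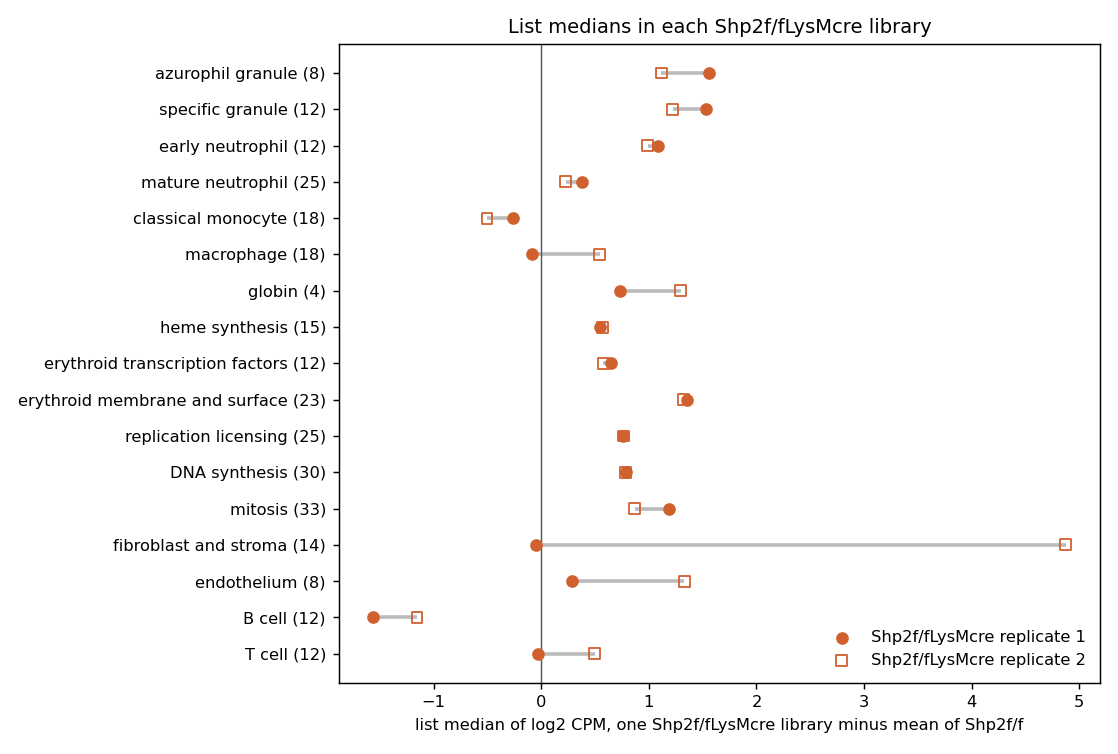
Median over each list (number tested in parentheses) of log2 CPM in one Shp2f/fLysMcre library minus the mean of the Shp2f/f libraries, with a filled circle for replicate 1 and an open square for replicate 2. The replicates lie close together for replication licensing and erythroid membrane genes, while the fibroblast and stroma list runs from -0.05 in replicate 1 to 4.88 in replicate 2.

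Markers of other cell types were read beside these programs. Of 12 B cell genes 4 were called lower and 0 higher by edgeR, with a median of -1.52, and 1 was higher at an unadjusted p under 0.05 and 0 by DESeq2. Pax5, the B lineage factor, was at 3.93 and 2.697 CPM in Shp2f/f and at 0.514 and 0.416 CPM in Shp2f/fLysMcre (log2 fold change -2.83, SE 0.337, edgeR BH-adjusted p = 0.0206), and Cr2 (complement receptor 2) at 4.70 and 3.21 CPM against 0.657 and 0.494 CPM (-2.78, SE 0.334, edgeR BH-adjusted p = 0.0206). The summed level of the 12 B cell genes was between 66.5 and 92.8 CPM, and that of 12 T cell genes between 19.0 and 33.2 CPM, where 0 were called by edgeR or DESeq2 and 3 were higher and 2 lower at an unadjusted p under 0.05. Summed over the list, macrophage genes were at 1748 and 1954 CPM in Shp2f/f and at 1660 and 1945 CPM in Shp2f/fLysMcre. The part that such cells, the red cell precursors or the sex of the mice had in the granulocytic and cell cycle results was not tested.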

How the data were processed

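The 4 MDSC libraries are stranded poly(A) RNA libraries read as paired 42 nt fragments. The authors trimmed reads with cutadapt 2.5, aligned them to GRCm38 using STAR 2.7.3a and counted fragments per Ensembl gene using featureCounts (Subread 1.6.2), per the processing notes of the submitters and the methods of the study. They deposited raw counts per gene, which were used for every result, and a second table of signal, the counts divided by DESeq2 1.24.0 size factors, which was not used here. Strand setting and treatment of reads with several matches are not given in the sources used here, so overlapping genes and near-identical copies are uncertain.

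Symbols, positions and exon lengths came from GENCODE M21 for GRCm38, which matched 99.9% of gene identifiers. Genes were kept by filterByExpr (minimum count 10), libraries scaled by TMM, and genotype tested in MDSC alone with the quasi-likelihood F test of edgeR 4.0.16 in R 4.3.3, with Benjamini-Hochberg adjustment over 14806 genes and a threshold of 0.05. Log2 CPM for the question of single libraries used a prior count of 2. On data simulated from these libraries, 48 of 100 genes changed by 2-fold and 99 of 100 changed by 4-fold were called. A further 8 genes were called that had not been changed. The simulation gave all genes and both genotypes the same dispersion. It thus lacks the wider spread of the Shp2f/fLysMcre pair, and these rates may not hold for the real libraries. Lists were described by counts and medians and not tested.

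Members and lists were chosen with earlier results of these data known. Named genes were Ptpn11 and Lyz2, per list of the 4 programs the 3 called members with the largest change and the 2 with the highest level, per other list the 2 largest called changes, lineage markers, and for each library the 5 largest changes resting on it (mean of at least 5 CPM). Xist, Eif2s3y and other list members were named after their values were seen. Alternatives were other scalings, filters, DESeq2 1.42.0, a replicate block, a fit of all 10 samples and leaving out each library. Promoter windows came from RefSeq (GRCm38.p6), and the printed stretches overlap no exon of GENCODE M21. Some genes that the rule names are not reported here.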

Additional observations from a re-analysis of the deposited data

How the results depend on the processing

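The effect of depth was not tested. The 633 calls became 130 with no filter on low counts, 1216 with the DESeq2 Wald test, 2666 in one fit of all 10 samples and 1167 at an adjusted p under 0.1, and ranged from 1 to 4406 with each library left out (1 without either Shp2f/f library, 4406 without Shp2f/fLysMcre replicate 1, 2729 without replicate 2). In a fit without a library its group is assumed to vary like the other group. DESeq2 size factors in edgeR gave 602, scaling by total counts 635, removal of the 20 most counted genes 579, a filter of 1 CPM in 2 libraries 792 and, added after seeing the data, removal of X- and Y-linked genes 623. With the replicate number as a block 2674 genes were called. Same-numbered libraries had deviations from their group means that correlated with r = 0.28, but with only 2 pairs and no stated batch the samples share only a number, and the block turned the sign of 0 named genes. Genes resting on 1 library numbered 339, 336 with a prior count of 0.5 and 371 under scaling by total counts.

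Scaling by total counts moved list medians beyond 1 SD of the replicates for granulocyte transcription factors (0.10), nonclassical monocytes (0.23), MHC class II (-0.028), heme synthesis (0.58), erythroid transcription factors (0.66) and erythroid membrane genes (1.39). MHC class II moved to -0.10 without a filter and to -0.060 with 1 CPM in 2 libraries. With each library left out, medians ranged from 1.09 to 1.56 for azurophil granule, 1.19 to 1.53 for specific granule, 0.088 to 0.22 for gelatinase granule, 0.20 to 0.38 for mature neutrophil, -0.053 to 0.080 for granulocyte transcription factors, -0.53 to -0.27 for classical monocyte, 0.15 to 0.21 for nonclassical monocyte, -0.093 to 0.51 for macrophage, -0.17 to 0.032 for MHC class II, 0.72 to 1.27 for globin, 0.55 to 0.65 for erythroid transcription factor, 1.30 to 1.35 for erythroid membrane, 0.72 to 0.84 for DNA synthesis, 0.84 to 1.18 for mitosis and 0.17 to 0.32 for G1 regulator genes. The causes were not tested.

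Signs turned only in named genes that were not called. Scaling by total counts gave 0.011 for Srgn, 0.040 for Apoe and 0.029 for Cd74, the 1 CPM filter 0.0092 for Apoe, and H2-Ab1 was -0.013 without a filter and -0.011 with DESeq2. With each library left out in turn, log2 fold changes ranged from -0.17 to 0.074 for Srgn, -0.36 to 0.18 for Igsf6, -0.45 to 0.064 for Mpeg1, -0.23 to 0.023 for Nr4a1, -0.12 to 0.10 for Apoe, -0.10 to 0.061 for Cd74, -0.12 to 0.089 for H2-Ab1, -0.23 to 0.31 for Ikzf1, -0.16 to 0.21 for Epb41, -0.025 to 0.22 for Ly6c2, -0.013 to 0.89 for C1qa, -0.68 to 0.077 for C1qb, -0.075 to 0.18 for Mertk, -1.07 to 0.25 for Pf4 and -0.35 to 0.11 for Itga2b. For genes carried by Shp2f/fLysMcre replicate 2 the range was -0.74 to 5.70 for Col1a1, -1.06 to 5.87 for Col3a1, -1.39 to 6.21 for Dcn, -0.25 to 10.11 for Amelx and -1.31 to 8.04 for Tnc.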

Other observations

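Type I interferon response genes were another group that lay higher in Shp2f/fLysMcre MDSC. Of 25 tested genes 8 were called higher (3.76% of all tested genes were), all 25 had log2 fold changes above 0 and the median was 0.45. Ifit2, an interferon-induced RNA-binding protein, was at 8.54 and 8.39 CPM in Shp2f/f and at 25.6 and 17.2 CPM in Shp2f/fLysMcre (log2 fold change 1.33, SE 0.216, edgeR BH-adjusted p = 0.0360), and Oasl1 at 12.7 and 14.6 CPM against 32.2 and 31.3 CPM (1.22, SE 0.124, edgeR BH-adjusted p = 0.0183). Irf7 and Irf9 had log2 fold changes of 0.35 and 0.06 and were not called. In the same libraries edgeR called 0 of 18 immediate early and heat shock genes, DESeq2 called 1 higher and 1 lower, and 3 passed at an unadjusted p under 0.05, 2 of them higher.

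Among stem and progenitor genes 3 of 11 were called higher, and they were those of transcription factors and a surface glycoprotein. Erg was at 1.95 and 1.70 CPM in Shp2f/f and at 11.4 and 6.76 CPM in Shp2f/fLysMcre (log2 fold change 2.31, SE 0.313, edgeR BH-adjusted p = 0.0240), and Hlf at 0.610 and 0.394 CPM against 2.31 and 2.57 CPM (2.28, SE 0.334, edgeR BH-adjusted p = 0.0295). Kit and Cd34, surface genes of progenitors, had 0.15 and 0.28 and were not called. Of 8 basophil and mast cell genes 3 were called higher, 1 lower and 4 were not called. Those called higher included Prss34 at 4.42 and 5.03 CPM against 11.7 and 13.8 CPM and Mcpt8 at 3.93 and 3.61 CPM against 8.68 and 11.1 CPM. Gzmb on the same list fell from 3.66 and 4.58 CPM to 1.54 and 1.69 CPM.

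Beside the 4 of 12 B cell genes called lower, the 194 tested immunoglobulin segments had a median log2 fold change of 0.93, and Jchain, the joining chain of plasma cells, was at 230.0 and 164 CPM against 341 and 260.2 CPM and was not called. Of 8 plasma cell genes 0 were called by edgeR, 6 were higher and 2 lower at an unadjusted p under 0.05, and DESeq2 called 1 higher and 2 lower.

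Genes tied to the suppressive function of MDSC were mostly not called. Of 19 tested genes S100a8 and S100a9 were called higher by edgeR, and DESeq2 called 3 higher and 1 lower. Cd38 was at 135 and 132 CPM in Shp2f/f and at 134 and 121 CPM in Shp2f/fLysMcre. Among 17 receptors and adaptors of myeloid growth factors edgeR called 0, DESeq2 called 1 lower, and 2 were lower at an unadjusted p under 0.05. The genes named here were chosen after their values were seen.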
